A study of Homo sapiens with 6 samples.

Results

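Occupancy of 10 genes of the neuronal cytoskeleton and growth cone by HAND2, MEIS2 and TCF4 was read from CUT&Tag peak lists. The genes are STMN2, STMN4, GAP43, PRPH, NEFL, NEFM, TUBB3, DCX, MAP2 and MAPT, named one by one for their known roles, and all 10 were found among the 19974 protein-coding genes of RefSeq used here. A gene was scored as occupied at an end where a peak overlapped the 1 kb on either side of its lowest or highest RefSeq coordinate in GRCh38, and peaks further out were counted by their summits in the gene or within 50 kb of it.

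The cells were SK-N-BE(2), an established human neuroblastoma line, and the labels name no treatment or genetic change for any group. CUT&Tag uses an antibody to bring a transposase to the protein, so that the DNA next to it is cut and tagged for sequencing. There were 2 libraries for HAND2, 2 for MEIS2 and 1 for TCF4. The control library used a non-specific IgG antibody. It enters here through the background of the peaks, and no peak list of it was analysed here. All groups come from this 1 cell line, and nothing in the labels says that replicates were separate cultures. HAND2 is a basic helix-loop-helix factor of sympathetic neurons, TCF4 is an E protein that pairs with such factors on E-boxes, and MEIS2 is a homeodomain factor.

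Sympathetic neurons and their precursors build axons and dendrites on microtubules and intermediate filaments. Tubulin polymers are bundled and stabilised by MAP2 in dendrites, by tau (MAPT) in axons and by doublecortin (DCX) in migrating neurons, and are taken apart by stathmins such as STMN2 and STMN4. Peripherin (PRPH) and the neurofilament subunits NEFL and NEFM form the intermediate filaments of peripheral axons, and GAP43 is a membrane-bound protein of the growing axon tip. These genes are commonly read as signs of neuronal differentiation in neuroblastoma cells. No RNA was measured here, so whether the genes are expressed in these cells is not known.

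The lists held 9595 to 33484 peaks, and the median fragment pile-up at summits was 13 to 60. MEIS2 replicate 2 stood apart: 16.8% of its peaks overlapped a replicate 1 peak, and 24.6% of replicate 1 peaks overlapped one of its own. Between the HAND2 replicates these shares were 71.6 to 78.5%. All peak names of MEIS2 replicate 2 carry the word Flag although both MEIS2 libraries have the same antibody label. As a check of the line, the IgG background at MYCN, which is amplified in these cells, was equal to 2466 to 2643 fragments. These values are of the single IgG library, read through the 4 lists with a peak there, so they are not separate checks. An end of DBH, the noradrenaline-synthesis gene of adrenergic cells, was occupied in both HAND2 replicates, at folds of 13.3 and 14.5, as were ends of 1 of 5 liver and blood genes. The fold given below is the authors' ratio of the pile-up at the summit to the local background. Its interval is an exact 95% Poisson interval of the pile-up, which covers counting error only. Fold is read within a list and not compared as a level between lists. Lower and upper, and below and above, refer to genome coordinates and not to the strand of a gene.

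The 6 stretches of 250 bases upstream of transcript starts listed by RefSeq (GRCh38.p14) are shown first, because peaks of these libraries overlapped all of them but the last, DCX, whose nearest peak is described below. Each reads 5′ to 3′ on the strand of its gene, and capitals mark E-boxes, CANNTG, the core word bound by basic helix-loop-helix dimers. The MAP2 pair precedes starts inside the gene, both within 1 HAND2 peak. The TUBB3 window has peaks but no E-box, and the DCX window has 3 E-boxes but no peak. The 6 were picked from 10 windows listed for these genes, after their peaks and E-boxes were seen. The 4 not shown hold no E-box: 1 of TUBB3, under peaks of TCF4 and MEIS2 replicate 1, and 2 of DCX and 1 of MAP2, under no peak.
GAP43, chr3:115623260-115623509, plus strand: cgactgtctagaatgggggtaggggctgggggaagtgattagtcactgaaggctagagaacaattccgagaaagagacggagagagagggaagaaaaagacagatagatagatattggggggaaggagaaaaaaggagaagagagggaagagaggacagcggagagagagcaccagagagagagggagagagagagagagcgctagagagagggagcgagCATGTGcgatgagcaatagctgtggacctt
MAP2, chr2:209579082-209579331, plus strand: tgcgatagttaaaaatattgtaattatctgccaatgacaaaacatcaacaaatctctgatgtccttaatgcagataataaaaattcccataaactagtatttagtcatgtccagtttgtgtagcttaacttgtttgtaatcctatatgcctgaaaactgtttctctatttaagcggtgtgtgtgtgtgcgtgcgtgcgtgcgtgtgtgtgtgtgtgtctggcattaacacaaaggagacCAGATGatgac
MAP2, chr2:209579357-209579606, plus strand: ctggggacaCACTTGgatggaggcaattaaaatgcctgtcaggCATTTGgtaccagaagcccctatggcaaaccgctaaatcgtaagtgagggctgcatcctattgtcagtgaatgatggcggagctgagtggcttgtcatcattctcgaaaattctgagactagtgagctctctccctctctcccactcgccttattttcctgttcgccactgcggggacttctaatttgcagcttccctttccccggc
PRPH, chr12:49294897-49295146, plus strand: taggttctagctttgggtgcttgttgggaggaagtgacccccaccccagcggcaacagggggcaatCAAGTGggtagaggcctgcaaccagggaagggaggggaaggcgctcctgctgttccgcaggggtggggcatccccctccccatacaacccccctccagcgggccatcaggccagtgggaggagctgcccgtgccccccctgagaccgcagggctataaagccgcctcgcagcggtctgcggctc
TUBB3, chr16:89921675-89921924, plus strand: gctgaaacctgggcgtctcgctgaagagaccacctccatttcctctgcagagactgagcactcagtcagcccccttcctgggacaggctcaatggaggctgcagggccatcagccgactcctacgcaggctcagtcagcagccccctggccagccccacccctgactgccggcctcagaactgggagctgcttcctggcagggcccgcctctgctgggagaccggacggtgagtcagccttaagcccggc
DCX, chrX:111411147-111411396, minus strand: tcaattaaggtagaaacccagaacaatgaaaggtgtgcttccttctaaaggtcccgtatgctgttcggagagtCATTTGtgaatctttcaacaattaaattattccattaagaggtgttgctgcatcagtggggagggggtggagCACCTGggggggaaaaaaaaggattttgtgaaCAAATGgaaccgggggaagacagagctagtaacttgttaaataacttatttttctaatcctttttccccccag
An E-box on either strand occurred in 61.8% of the 34789 promoter windows of this length, so its presence in a window is common. CAGATG, the E-box 11 bases before the upstream MAP2 start, occurred in 12.1% (both strands). In MAP2, the window of the downstream start also holds TGACAG, the core word of MEIS factors, on the opposite strand. This word, counted on either strand, occurred in 13.1% of windows. No MEIS2 peak of either replicate overlapped that MAP2 window. The E-box CAGCTG occurred in 14.0% of windows, and the longer form TGACAGNT in 2.9%. Both 6-letter E-boxes are among the words CANNTG covers, and the 8-letter word contains TGACAG. The promoter table held 5 of the 10 genes (GAP43, PRPH, TUBB3, DCX and MAP2).

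Counted at gene ends, the share of these genes with a peak was above that of all protein-coding genes in both HAND2 replicates and in MEIS2 replicate 1, and close to it for TCF4. HAND2 replicate 1 had a peak at an end of 7 of the 10 genes, where 20.6% of all protein-coding genes had one. HAND2 replicate 2 had a peak at 5, against 27.8% of all genes, and these 5 (GAP43, PRPH, NEFL, NEFM and TUBB3) were occupied in both replicates, against 18.8% of all genes. STMN2 and STMN4 were occupied in replicate 1 only, and DCX, MAP2 and MAPT in neither. MEIS2 replicate 1 had a peak at an end of 6 genes (STMN2, GAP43, PRPH, NEFM, TUBB3 and MAPT), against 11.5% of all genes. MEIS2 replicate 2 had one at STMN2 alone, against 2.18%, so STMN2 was the only gene with both MEIS2 replicates at its ends, beside 1.0% of all genes. TCF4 reached an end of 6 (STMN2, PRPH, NEFL, NEFM, TUBB3 and MAPT), close to the 53.9% of all genes. The genes were chosen with earlier results of these data known, so the counts are a description and no test was made. The HAND2 count was 3 when the summit itself had to lie within 1 kb of an end and, separately, 3 at a −log10 q of 5 or more, with no background share computed for either. Without peaks whose background reached 30 IgG fragments, the HAND2 count was 4 (13.8% of all genes) and the TCF4 count was 3 (39.1%). In MEIS2 replicate 1 the end peaks of PRPH, NEFM and TUBB3 were above this background limit. Those of GAP43, NEFM and MAPT had a −log10 q below 5, so only STMN2 kept an end peak under both limits. No share of all genes was computed for MEIS2 replicate 1 under either limit.

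**Figure D1:**
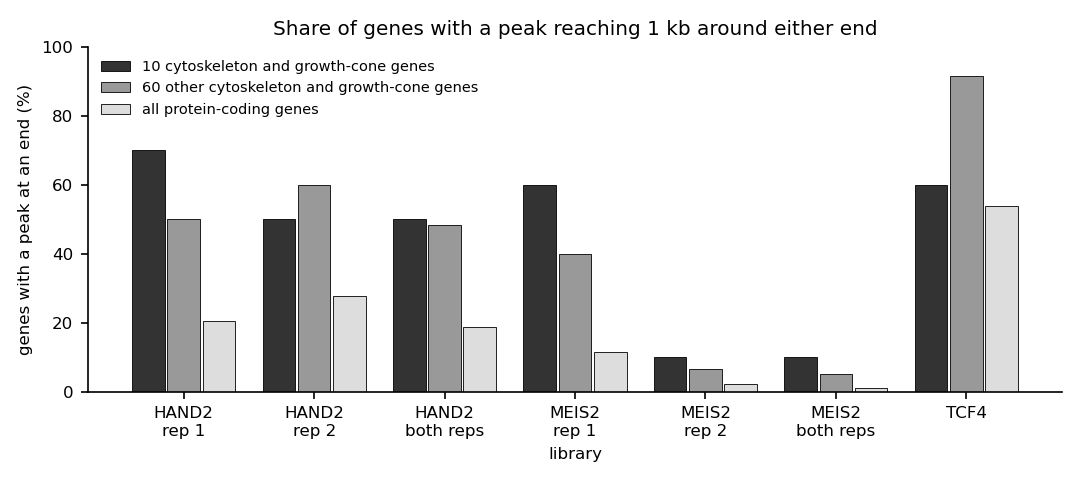
Share of genes (%) with a peak reaching 1 kb around either gene end, by library, for the 10 genes (dark bars), the 60 other cytoskeleton and growth-cone genes described below (grey) and all 19974 protein-coding genes (light). In both HAND2 replicates 5 of the 10 genes were occupied against 18.8% of all genes, while for TCF4 6 of 10 stood beside 53.9%.

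The intermediate filament genes were each occupied at an end by both HAND2 replicates and by TCF4. Without peaks at 30 or more IgG fragments, PRPH lost both the HAND2 and the TCF4 call, NEFM lost the TCF4 call, and NEFL kept both. NEFM kept its HAND2 call, but without a peak shared by the replicates. The replicate 1 peak overlapping that of replicate 2 had 36.9 IgG fragments and was removed. A separate replicate 1 peak, at 15.0 fragments, remained. At PRPH (chromosome 12, 49295147 to 49298686), HAND2 reached a fold of 5.48 (4.83 to 6.20) in replicate 1 and 5.99 (5.36 to 6.68) in replicate 2. MEIS2 replicate 1 stood at 4.45 (3.44 to 5.68) and TCF4 at 9.39 (8.52 to 10.3), while MEIS2 replicate 2 had no peak. The 4 summits lay 1743 to 1884 bp before the listed start, within 141 bp of each other and inside the antisense RNA gene TROAP-AS1, so it was the flank of a broad peak that reached the gene. All 4 peaks cover the E-box CAAGTG of the PRPH sequence, and those of HAND2 and TCF4 also cover the listed start. The background there was high, at 54.0 to 57.1 IgG fragments, against list medians of 7.0 to 14.0 for these libraries, and without such peaks PRPH has no call. A TCF4 peak of 12.7 (11.0 to 14.6) lay 43848 bp above PRPH, where HAND2 had 2.50 (1.78 to 3.42) and 3.84 (2.94 to 4.92) and MEIS2 replicate 1 had 4.7 (3.16 to 6.77). The protein-coding gene end nearest to that TCF4 summit was of DNAJC22, 4354 bp away, so the site cannot be assigned to PRPH.

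NEFM and NEFL, which encode the medium and light neurofilament chains, are neighbours on chromosome 8 (24913761 to 24919093 and 24950955 to 24956612). The peaks at the NEFM end were weak. At the lower end of NEFM, HAND2 replicate 2 had a fold of 2.75 (2.16 to 3.46), and the replicate 1 peak that overlapped it had 1.72 (1.29 to 2.25). Another replicate 1 peak, of 2.65 (1.85 to 3.69), lay apart from both, with its summit 1249 bp from that of replicate 2. There the fold was 2.98 (2.04 to 4.21) in MEIS2 replicate 1 and 3.65 (2.98 to 4.44) for TCF4. By fold, the overlapping HAND2 peaks ranked at the 0.3th and 12.4th percentiles of the lists of replicates 1 and 2, and the separate one at the 7.7th. At the upper end of NEFL, fold was 5.33 (3.82 to 7.27) and 4.90 (3.6 to 6.52) for HAND2, with summits 1063 and 909 bp outside the gene. The TCF4 peak of NEFL (4.01, 3.25 to 4.90) had its summit inside the gene, 212 bp from the same end, at the place of a weaker HAND2 replicate 2 peak of 2.70 (2.11 to 3.40). Neither MEIS2 library had a peak at an end of NEFL.

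Away from the ends, stronger HAND2 peaks lay around the neurofilament pair, and which gene these sites serve was not tested. A site 26353 to 26391 bp below NEFM, where both HAND2 replicates but no other library had a peak, reached a fold of 16.6 (12.6 to 21.6) in replicate 1 and 29.0 (23.2 to 35.9) in replicate 2. Summits of the replicates lay 38 bp apart, at the 93.6th and 98.7th percentiles of the lists, and the protein-coding gene end nearest to them was that of NEFM. On the other side, 41872 to 41882 bp above NEFL and within the non-coding gene LOC105379330, HAND2 folds were 9.98 (7.84 to 12.5) and 6.03 (4.51 to 7.92), beside 7.58 (4.88 to 11.3) in MEIS2 replicate 2. The next site up held 3.27 and 6.34 for HAND2, 4.94 in MEIS2 replicate 1 and 9.25 (7.82 to 10.9) for TCF4. The windows of NEFM and NEFL overlap, so 4 of the sites are counted for both genes.

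GAP43 (chromosome 3, 115623510 to 115721483) had summits of 3 libraries on its start. In HAND2 replicate 1 the summit was 1 bp before the listed start, with a fold of 5.53 (3.56 to 8.26). The replicate 2 summit was 8 bp before it at 3.81 (2.31 to 5.97), and that of MEIS2 replicate 1 was 15 bp before it at 5.02 (2.57 to 9.09). The E-box CATGTG of the GAP43 sequence above lies 10 to 24 bp from these summits. TCF4 and MEIS2 replicate 2 had no peak at either end. These are small peaks, with pile-ups of 22, 17 and 9 fragments.

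The strongest HAND2 peaks of GAP43 lay inside the gene. At 70.5 kb from the start, HAND2 replicate 1 stood at 16.1 (12.5 to 20.4) and replicate 2 at 14.2 (11.0 to 18.0). The fold there was 7.03 (3.98 to 11.7) in MEIS2 replicate 1, 5.23 (2.76 to 9.22) in MEIS2 replicate 2 and 5.08 (3.2 to 7.71) for TCF4. Of the 79 merged spans of peaks in or around the 10 genes, this was the 1 that took in peaks of all 5 libraries, beside 1059 of 61457 over the genome. The MEIS2 replicate 2 peak ended at 115693436, before the peaks of HAND2 replicate 2 and TCF4 began, and its summit was 688 bp from the farthest of the others, so these do not mark 1 common position. A further site, 90.0 kb in, had 11.6 (8.55 to 15.3) and 9.94 (7.34 to 13.2) for HAND2 and 13.4 (9.26 to 18.7) in MEIS2 replicate 2. The other MEIS2 replicate and TCF4 had none. TCF4 had its highest GAP43 fold, 7.05 (5.75 to 8.56), at 35.3 kb, where HAND2 had 3.19 and 4.93. RefSeq exons were not used, so these sites are placed in the gene without exon or intron.

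Among the microtubule genes, TUBB3, the neuronal beta-tubulin, had the most TCF4 summits. TUBB3 spans 89921925 to 89936097 of chromosome 16. Fold at its start was 15.9 (14.2 to 17.8) for TCF4. HAND2 had 3.6 (2.81 to 4.54) and 3.65 (2.91 to 4.54), close to each other, and MEIS2 replicate 1 had 3.21 (2.30 to 4.38), with a further peak of 4.43 (2.82 to 6.67) at 3.0 kb. The HAND2 and TCF4 summits lay 106 to 109 bp after the first listed start, just past the TUBB3 sequence shown. The TCF4 peak was itself 5975 bp long and also covers the second listed start. The MEIS2 summit lay 354 bp before that second start. TCF4 had 16 summits in the gene or within 50 kb, and 11 of the 16 places were seen in no other library. Several lay near ends of other genes, among them a fold of 19.8 (18.1 to 21.7) 669 bp from an end of MC1R and a fold of 8.52 (7.08 to 10.2) 274 bp from an end of DEF8, so they cannot be assigned to TUBB3. Reads of tubulin genes can be shared with near-identical copies, so fold within TUBB3 may be uncertain. Whether this happened here was not tested.

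**Figure D2:**
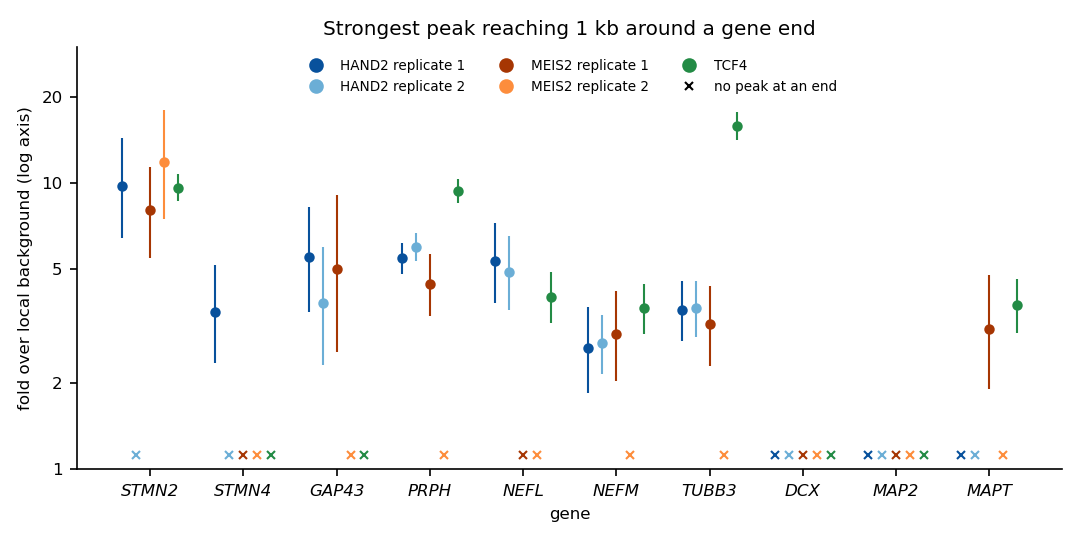
Fold over the local background (log axis) of the strongest peak reaching 1 kb around an end of each of the 10 genes, by library, with exact 95% Poisson counting intervals as bars. A cross marks a gene with no peak at an end. Among the TCF4 values TUBB3 (15.9) is the highest, and DCX and MAP2 have crosses for all 5 libraries.

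STMN2 and STMN4, the microtubule-destabilising stathmins, were the genes with a HAND2 peak at an end in 1 replicate and not in the other. STMN2 lies on chromosome 8 (79611117 to 79666158). At its lower end HAND2 replicate 1 had a fold of 4.86 (3.58 to 6.44), MEIS2 replicate 1 had 8.06 (5.48 to 11.5) and MEIS2 replicate 2 had 5.24 (3.37 to 7.82). At its upper end HAND2 replicate 1 had 9.79 (6.41 to 14.4) and MEIS2 replicate 2 had 11.9 (7.49 to 18.1). HAND2 replicate 2, the deeper of the pair (0.93 against 0.79 relative to IgG), had no peak at either STMN2 end, although its nearest peak began at 79612218, just outside the 1 kb window. The HAND2 libraries met 1.9 kb inside STMN2, at 3.25 (2.68 to 3.91) and 3.21 (2.67 to 3.84), with summits on the same base as that of TCF4 at 9.67 (8.65 to 10.8). MEIS2 replicate 1 had 6.64 (5.27 to 8.27) with its summit 27 bp away, and 39.1 to 44.0 IgG fragments lay under these 4 peaks. The flank of this TCF4 peak, which began at 79611816, is what counted as TCF4 at an end of STMN2. STMN4 (chromosome 8, 27235308 to 27258404) had a single peak at an end, in HAND2 replicate 1, at 3.56 (2.35 to 5.18). MEIS2 replicate 1 had 8.03 (4.55 to 13.3) 41524 bp above STMN4 and MEIS2 replicate 2 had 5.29 (3.05 to 8.63) 22734 bp above it, so no library shared a site with another there.

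MAP2 and MAPT had HAND2 inside or beside the gene and not at its ends. MAP2 (chromosome 2, 209424047 to 209734112) had no peak of any library at an end. Yet 155.5 kb into the gene, HAND2 stood at 14.4 (11.0 to 18.6) in replicate 1 and at 15.4 (12.1 to 19.4) in replicate 2, with summits 74 and 59 bp before a transcript start listed by RefSeq at 209579607. The peak interval was the same in both lists, 209579279 to 209579729, and it also covers the listed start at 209579332. It holds all 3 E-boxes of the MAP2 sequences above, which lie 128 to 222 bp from the summits. MEIS2 and TCF4 had no peak there. Counting any listed start in place of gene ends, HAND2 lay within 1 kb of a start in both replicates for GAP43, PRPH, TUBB3 and MAP2, 4 of the 5 genes in the promoter table, against 18.7% of 15812 genes. Replicate 1 alone reached those 4 (20.5% of genes) and replicate 2 alone all 5, DCX included (27.9%). TCF4 did so for PRPH and TUBB3 (55.7% of genes), and MEIS2 replicate 1 for GAP43, PRPH and TUBB3 (11.7%). MEIS2 replicate 2 reached no listed start of the 5 (2.04%), so neither did both MEIS2 replicates together (1.13%).

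Deeper in MAP2, at 176.7 kb, HAND2 replicate 1 had a fold of 14.1 (9.94 to 19.5) and replicate 2 had 4.31 (2.33 to 7.43), from pile-ups of 35 and 11 fragments. Whether the replicates differ there was not tested, since the intervals hold counting error only. At 71.3 to 71.4 kb both HAND2 replicates again had a peak, of 5.56 (4.07 to 7.42) and 6.18 (4.71 to 7.98). MEIS2 replicate 2 had 3 summits in MAP2, led by 12.5 (7.93 to 18.8), at 72.2 kb. This fold and the 11.9 of the same library at STMN2 rest on pile-ups of 21 and 20 fragments. Their background was 2.1 IgG fragments, the lowest and also the median of its peaks at the 10 genes. The only TCF4 summit within 50 kb of MAP2 was 204 bp from an end of UNC80, a neighbouring gene.

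**Figure D3:**
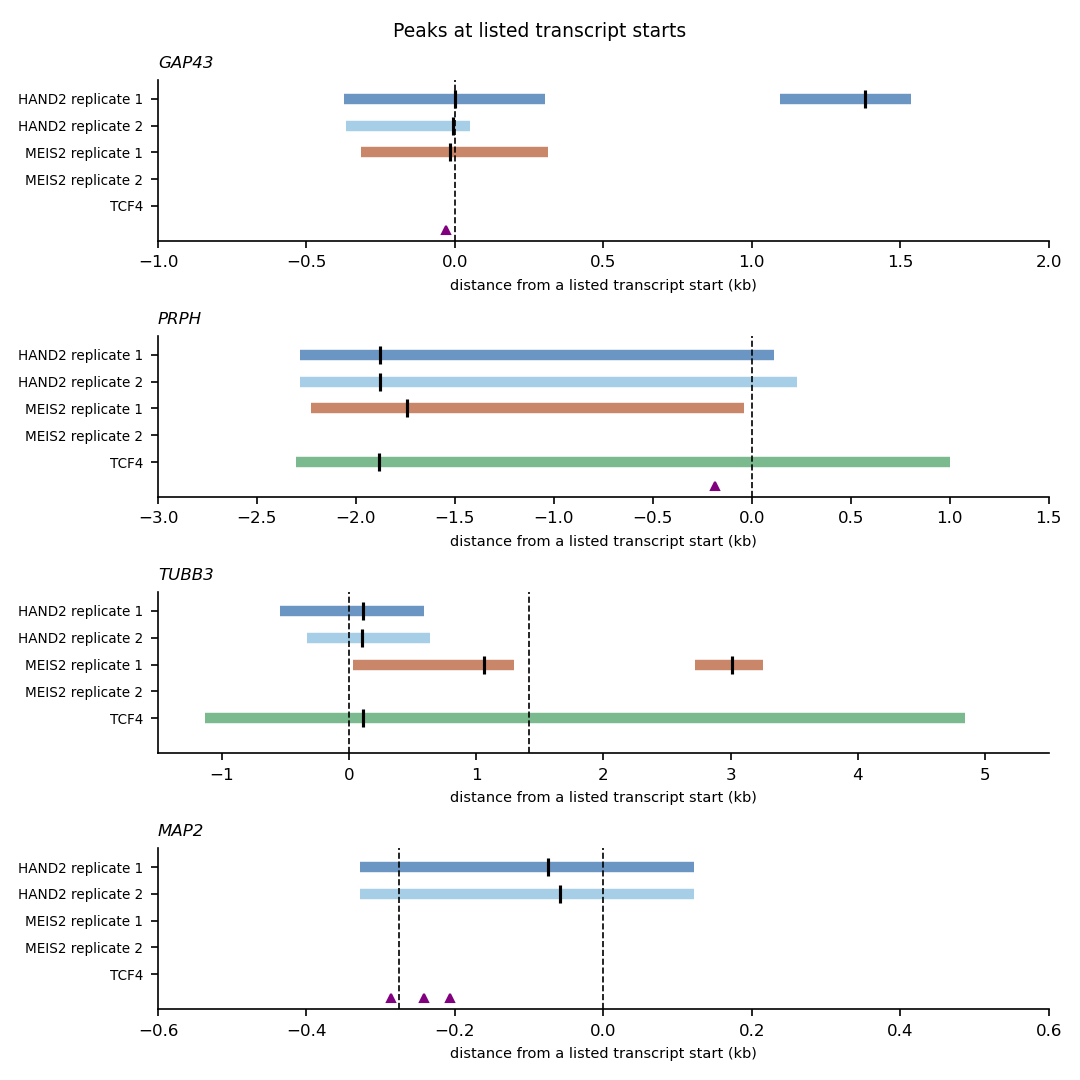
Peaks (bars) and their summits (black ticks) in each library around listed transcript starts (dashed lines) of GAP43, PRPH, TUBB3 and MAP2, by distance in kb from the first listed start shown, or from the downstream start of the pair for MAP2. Purple triangles mark E-boxes in the 250 bases before a start. Summits stand on the GAP43 start, 1743 to 1884 bp before that of PRPH, and 59 and 74 bp before that of MAP2, where only HAND2 had a peak.

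Tau, encoded by MAPT (chromosome 17, 45894554 to 46028334), had the strongest HAND2 peak of the 10 genes. It lay 33280 to 33316 bp below the gene and reached 30.3 (26.0 to 35.2) in HAND2 replicate 1 and 35.2 (30.8 to 40.03) in replicate 2. The same place had 12.1 (8.37 to 16.9) in MEIS2 replicate 1 and 12.6 (9.90 to 15.9) for TCF4. The 4 summits fell within 36 bp. In HAND2 they ranked at the 98.3rd and 99.2nd percentiles of the lists. The site is inside the antisense gene MAPT-AS1. The nearest end of a protein-coding gene is that of SPPL2C, 14171 bp away, so the site cannot be assigned to MAPT. MEIS2 replicate 2 had no summit in MAPT or within 50 kb.

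A pair of further sites inside MAPT was shared by the same 4 libraries. At 8.8 to 9.0 kb, HAND2 stood at 6.47 (4.46 to 9.10) and 6.77 (4.67 to 9.52), MEIS2 replicate 1 at 7.15 (4.20 to 11.5) and TCF4 at 4.88 (3.17 to 7.22). At 11.5 to 12 kb the values were 4.09, 3.95, 8.85 and 8.33 in the same order. The MAPT end itself had only TCF4, at 3.75 (2.99 to 4.64), and MEIS2 replicate 1, at 3.09 (1.90 to 4.80). TCF4 was strongest in the gene body at 126.7 kb, with 12.5 (10.2 to 15.2), where HAND2 replicate 1 had 3.0.

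DCX, on chromosome X (111293779 to 111412192), had no peak shared between libraries. No library had a peak at an end, TCF4 and MEIS2 replicate 1 had no summit within 50 kb, and none of its 5 sites was seen in more than 1 library. HAND2 replicate 1 had 3 summits, with folds of 5.17 to 6.66, and replicate 2 had 1, with 3.39 (1.99 to 5.45), 962 bp after a listed start. STMN4 likewise had no site common to the HAND2 replicates.

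**Figure D4:**
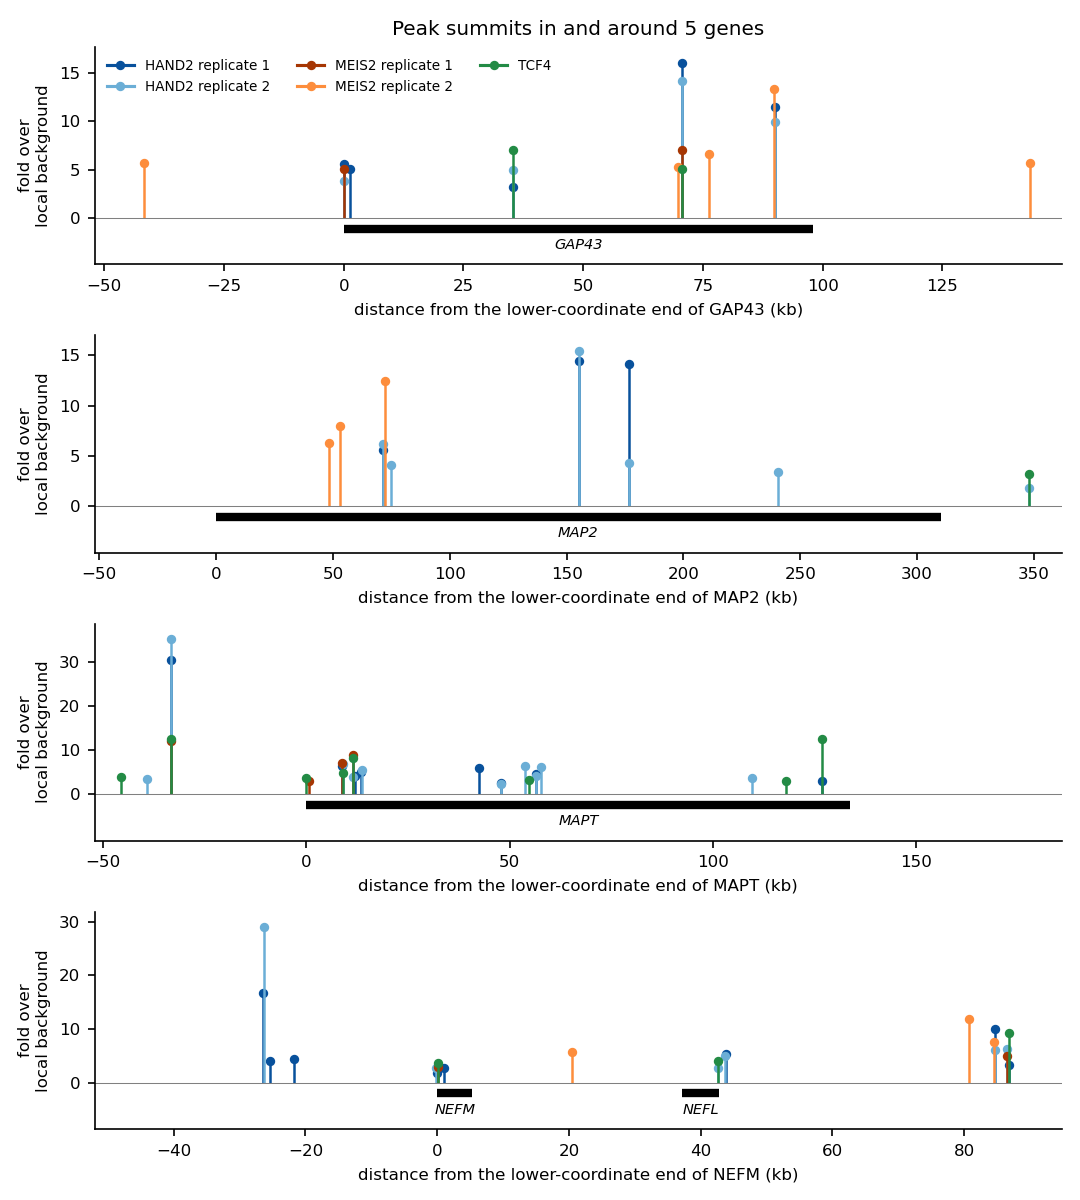
Summits of each library in and around GAP43, MAP2, MAPT and the NEFM and NEFL pair, by distance in kb from the lower-coordinate end of the (first) gene, with fold over the local background as height and genes as black bars. HAND2 peaks are highest away from the gene ends: 30.3 and 35.2 below MAPT, 16.6 and 29.0 below NEFM, 16.1 and 14.2 inside GAP43, and 14.4 and 15.4 inside MAP2.

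Over the gene bodies and 50 kb around them, the median density of HAND2 and MEIS2 summits was above that of all genes, and that of TCF4 was close to it. HAND2 replicates 1 and 2 had a summit at 10 and 9 of the genes (60.2 and 64.7% of all genes), with medians of 2.23 and 2.76 per 100 kb of window against 0.80 and 0.90 over all genes. MEIS2 replicates 1 and 2 had one at 8 and 7 genes (39.3 and 29.8% of all genes), with medians of 1.15 and 0.77 per 100 kb against 0 over all genes. TCF4 had one at 8 genes (76.0% of all genes), with a median of 1.45 per 100 kb against 1.37. Of the 79 places, 41 had a peak in 1 library only, which is 51.9%, against 52.9% of the 61457 places over the genome. Both HAND2 replicates were present at 25 places (31.6%, against 37.1% over the genome). MAPT led with 6, and STMN4 and DCX had none. Of the 25, 13 also had TCF4 (52%, against 53.0% over the genome), 11 MEIS2 replicate 1 (44.0 against 30.4%) and 3 MEIS2 replicate 2 (12 against 16.0%). Of the 16 places with MEIS2 replicate 2, 11 were seen in that library alone, as were 8800 of 13761 over the genome.

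**Figure D5:**
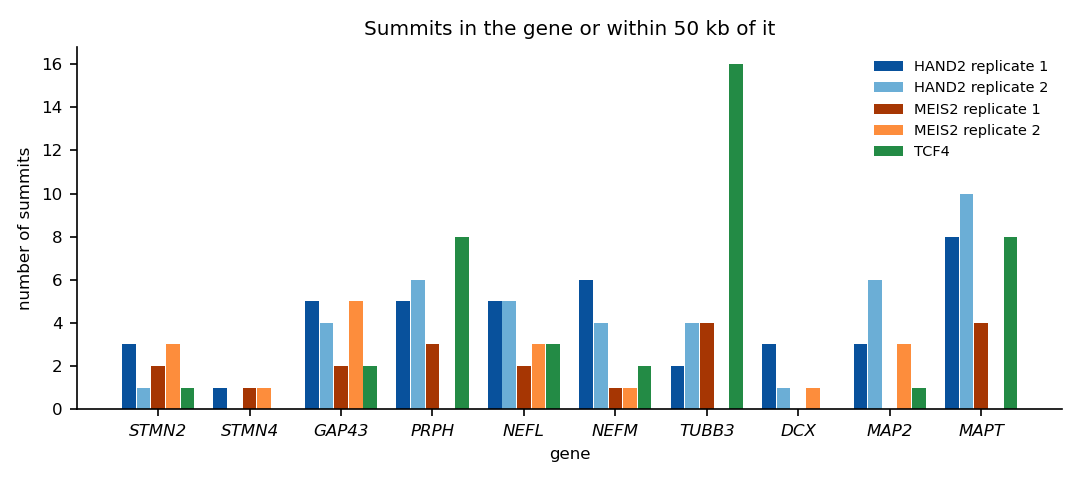
Number of summits in each of the 10 genes or within 50 kb, by library. TCF4 at TUBB3 (16) and HAND2 replicate 2 at MAPT (10) are the highest counts, and NEFL and NEFM share summits because their windows overlap.

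The 60 other cytoskeleton and growth-cone genes examined gave a like picture for HAND2 and a higher count for TCF4. Both HAND2 replicates were at an end of 29 of the 60 and TCF4 at 55, beside the 18.8 and 53.9% of all genes. Without peaks at 30 or more IgG fragments these counts were 21 and 40, beside 13.8 and 39.1% of all genes. MEIS2 replicate 1 was at 24 and replicate 2 at 4, beside 11.5 and 2.18%. Ranked by the lower of the replicates, the highest HAND2 folds were at MAP1A, a microtubule-associated protein gene (8.64 and 9.90 in replicates 1 and 2), and MARCKS, an actin-binding substrate of protein kinase C (8.42 and 9.52). TUBA4A, an alpha-tubulin (7.56 and 9.68), and the intermediate filament genes NES (6.64 and 6.89) and VIM (6.38 and 7.92) followed. MARCKS, TUBA4A and VIM were the 3 genes with both MEIS2 replicates at an end, beside 1.0% of all genes. Their folds were 9.04 and 5.26, 4.99 and 3.45, and 4.65 and 6.23. TCF4 was highest at MAP4 (23.7), DBN1, the drebrin gene (18.0), EVL (17.1), TUBB4B (15.2) and MAP1A (15.0). The same untested caveat applies to the values at TUBA4A and TUBB4B as to those at TUBB3. NEFH and INA, singled out after their values were seen as partners of NEFL and NEFM, differed: NEFH had 6.71 and 5.85 for HAND2 and 5.72 for TCF4, and INA had TCF4 alone, at 4.59.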

How the data were processed

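Peak lists of 5 CUT&Tag libraries were used (HAND2 and MEIS2 replicates 1 and 2, and TCF4), with groups taken from titles. The submitters' processing notes name bcl2fastq 2.17, Bowtie2 and MACS3 3.0.0a6, with hg38 as the build. How these were set, and whether duplicates were removed, is not given in the sources used here. As the deposited files show, peaks were called per library. The deposited values per peak are the fold, a ratio over local background at the summit, the −log10 p and −log10 q, and a score that was not used. A few peaks on other sequences than the numbered chromosomes and X (3 and 5 in the MEIS2 lists, 7 for TCF4) were dropped. The lists hold no read totals, so pile-up and background were recovered from fold and p (relative tolerance 5e-05), as tested on 1957 simulated peaks (100% recovered; 1.33% matched where p was altered). The background worth of 1 IgG fragment gave each depth relative to IgG (0.25 to 0.93). Coordinates are 1-based. Gene ends, symbols and promoter windows came from RefSeq tables of GRCh38.p14, with no exons and no genome sequence. A place is a merged span of peaks overlapping by at least 1 bp.

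The 10 genes and the list of 60 were chosen with earlier results of these data known, so shares over all genes are given and no test was made. Of the 60, the text names the 5 with the highest HAND2 fold (lower replicate), the 5 with the highest TCF4 fold and those with both MEIS2 replicates. Alternatives were other windows, thresholds and single replicates. Python 3.11.15, pandas 2.3.3 and SciPy 1.17.1 were used.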

Additional observations from a re-analysis of the deposited data

How the results depend on the processing

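Of 72 alternative values for 10 counts, 50 stayed within 1.5 times the reported one and 22 did not. Raw counts were compared, although those at listed starts were out of 5 or 50 genes in place of 10 or 60. Many settings could also move a count in 1 direction only, so this tally is no measure of robustness. HAND2 in both replicates at an end (5 of the 10 genes) came to 3 with summits within 1 kb, 3 at a −log10 q of 5 or more and 1 with the 5000 peaks of lowest p per library, and to 5 to 7 with 1 replicate left out. The summit rule left GAP43, NEFM and TUBB3, the q rule left PRPH, NEFL and TUBB3, and the top peaks left PRPH. MEIS2 in both replicates (1 of 10) came to 0 of 5 genes at listed starts. STMN2, the 1 gene counted, has no listed start and could not count there. With a replicate left out the MEIS2 count came to 1 to 6, 6 being without replicate 2. TCF4 (6 of 10) came to 3 with the top 5000 peaks, 3 without peaks at 30 or more IgG fragments and 2 of 5 at listed starts. STMN2, NEFL, NEFM and MAPT, which had TCF4 at an end, likewise have no listed start. For the 60 other genes, HAND2 came to 3 in place of 29 and TCF4 to 15 in place of 55 with the top 5000 peaks. No share of all genes was computed for the summit rule, the q rule or the top 5000 peaks. How these counts stand beside all genes under those settings is therefore not known. Summits at the 10 genes (38 and 38 for HAND2, 18 and 16 for MEIS2, 39 for TCF4) came in that order to 20, 20, 8, 8 and 15 in the gene bodies alone and to 6, 5, 7, 5 and 7 with the top 5000 peaks, where fewer peaks were counted. At 100 kb, MEIS2 replicate 2 had 31 and TCF4 62. No paired analysis was possible because these counts come from no test. TCF4 had no replicate, and the MEIS2 lists were the shallowest, so a missing MEIS2 peak does not show that MEIS2 was absent.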

Other observations

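The HAND2 replicates gave exactly the same peak interval at 112 places over the genome, and 2 of these were in the genes described, 1 in GAP43 (115713339 to 115713972) and 1 at the transcript start inside MAP2. ANK2, the ankyrin-B gene, was reached at an end by MEIS2 replicate 2 and no other library, with a fold of 13.6 (8.83 to 20.1). It was singled out after its value was seen. Among the 60 other genes, ANK3, GPM6A, MACF1 and MAP9 had no peak at an end in any of the 5 libraries.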
